A study of Homo sapiens with 18 samples.

Results

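The genes described here act in mitosis and at the kinetochore, and they were followed in PEO1, an established human ovarian cancer cell line. The rule is a list of 44 symbols with no threshold on a measured value, drawn up with earlier results of these data known, and each symbol was looked up in the deposited table of 57736 rows through the Ensembl transcripts that identify a row. All 44 had a row of their own, and all 44 passed the filter on low counts. Cells were transfected with a control siRNA (siControl) or with an siRNA against p53 (sip53), held in phenol red-free medium with charcoal-stripped serum, and given 10 nM estradiol (E2) for 0, 2 or 8 h. The 0 h cells were labelled as untreated. Each of the 6 groups had 3 libraries, so each arm had 9 and the study 18. All groups are the same line in the same hormone-depleted medium, the labels name 1 siRNA per arm, and nothing in the labels says whether the 3 libraries of a group were grown apart. A p-value here sets a difference between groups against the spread of these libraries only, and that spread may be technical.

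A cell enters mitosis when cyclins A and B activate the kinase CDK1, with CDC25 phosphatases as activators and FOXM1 as a transcription factor of the genes for this phase. Chromosomes then attach to the spindle at kinetochores, protein assemblies on the centromere, and the spindle checkpoint (BUB1, BUB1B, BUB3, MAD2L1 and TTK) holds back the anaphase-promoting complex until all are attached. Once CDC20 activates that complex, securin (PTTG1) and cyclin B are degraded, sister chromatids part, and kinesins, PRC1, ECT2 and ANLN help to divide the cell. The RNAs of most of these genes are abundant in G2 and mitosis and low in G1, and tumour cell lines that divide fast carry much of them.

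Promoters of genes of this phase are known for a short element, the cell cycle genes homology region, near CCAAT boxes. Windows of 300 bases (250 before and 50 after the start) were found in RefSeq for 37 of the 44 genes, in 50 windows on build GRCh38.p14. Searched on both strands, TTTGAA stood in 58% of the 50 windows and in 15.2% of all 35116 windows. The variant TTTAAA, which reads the same on both strands, stood in 34% against 12.2%, and CCAAT in 74% against 34.6%. Either of the first 2 motifs together with a CCAAT stood in 58% against 9.27%. These matches describe letters in the windows and no binding was measured. The windows of CENPA, CENPE and CDC20, which changed in the comparisons that follow, and of CCNB1, which was called in none, are printed 5′ to 3′, with matches to the 3 motifs on either strand in capitals (a match on the other strand stands as its reverse complement). They lie at chr2:26785806-26786105 (plus strand), chr4:103198294-103198593 (minus strand), chr1:43358731-43359030 (plus strand) and chr5:69166900-69167199 (plus strand) in that order. In CENPE, 2 of the 3 TTTAAA matches adjoin.
CENPA: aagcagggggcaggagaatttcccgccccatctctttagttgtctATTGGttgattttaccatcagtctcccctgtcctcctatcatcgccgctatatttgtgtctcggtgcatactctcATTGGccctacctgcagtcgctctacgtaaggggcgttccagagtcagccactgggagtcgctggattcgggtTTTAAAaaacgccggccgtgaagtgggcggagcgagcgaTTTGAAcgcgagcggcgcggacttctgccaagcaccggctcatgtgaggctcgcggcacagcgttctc
CENPE: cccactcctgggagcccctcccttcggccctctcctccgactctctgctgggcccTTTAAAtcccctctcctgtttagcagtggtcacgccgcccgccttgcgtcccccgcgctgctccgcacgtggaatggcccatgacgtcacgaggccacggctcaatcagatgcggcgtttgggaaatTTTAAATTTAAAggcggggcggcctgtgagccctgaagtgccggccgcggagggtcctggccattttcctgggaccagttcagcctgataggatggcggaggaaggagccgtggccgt
CDC20: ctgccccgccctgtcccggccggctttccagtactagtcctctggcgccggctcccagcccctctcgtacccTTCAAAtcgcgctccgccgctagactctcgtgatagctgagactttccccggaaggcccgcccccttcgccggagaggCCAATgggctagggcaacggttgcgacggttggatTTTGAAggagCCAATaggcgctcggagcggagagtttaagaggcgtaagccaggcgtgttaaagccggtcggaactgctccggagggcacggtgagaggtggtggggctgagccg
CCNB1: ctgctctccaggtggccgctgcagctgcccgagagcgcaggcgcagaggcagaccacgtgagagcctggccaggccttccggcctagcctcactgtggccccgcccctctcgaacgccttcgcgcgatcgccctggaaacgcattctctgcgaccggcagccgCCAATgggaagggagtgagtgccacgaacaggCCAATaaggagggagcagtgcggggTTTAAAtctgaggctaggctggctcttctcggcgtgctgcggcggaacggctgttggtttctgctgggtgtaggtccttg
Those of CENPA, CDC20 and CCNB1 hold 2 CCAAT matches each, on one strand or the other, and that of CENPE holds 0 in this window.

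Levels are given as CPM, a gene's share of a library's counts scaled to a common total, after TMM scaling of the authors' counts, which come from the 3′ ends of transcripts. A gene was called changed when the adjusted p of edgeR's quasi-likelihood test (Benjamini-Hochberg over 15318 genes) was under 0.05, and each log2 fold change stands with its standard error (SE). Libraries held 7542457 to 10132570 counts in siControl and 9225939 to 11307199 in sip53. By the deposited column numbers all siControl libraries come before all sip53 libraries, so arm and that order cannot be told apart. The members together took 0.729% to 0.819% of the counts in siControl and 0.621% to 0.829% in sip53. Between libraries of a group the typical gene varied by 15.2% beyond counting noise. Of the 12 epithelial and ovarian carcinoma markers, KRT7 (1209 to 2074 CPM), KRT18, EPCAM and PAX8 (96.1 to 149 CPM) were present in every library, while COL1A2, COL3A1, DCN and LUM of the 8 fibroblast markers and PTPRC and CD3E of the 6 leukocyte markers were at 0 in every library. Other genes of those lists were present, THY1 at 81.2 to 143 CPM, FAP at 7.20 to 17.1, COL1A1 at 4.64 to 13.3, CD14 at 4.01 to 9.12 and CD68 at 5.01 to 11.46. Their sums did not separate the arms, at 119 to 138 CPM in siControl and 100.3 to 159 in sip53 for fibroblast markers and 9.31 to 20.4 and 14.2 to 17.1 for leukocyte markers. A sum can hide opposite changes. Of the 3 fibroblast markers tested, 33.3% were called higher and 33.3% lower in sip53 averaged over the times (16.1% and 18.5% of all genes). The summed CPM of the 12 epithelial and ovarian carcinoma markers was 5862 to 6517 in siControl and 7222 to 8563 in sip53. The members move together between some libraries of 1 group. The library sip53 0 h replicate 1 was the highest of its 3 in 31 of 44 members, sip53 8 h replicate 2 in 29, and siControl 0 h replicate 2 and siControl 8 h replicate 3 were each the lowest in 30. The same sip53 libraries also stood apart in long AT-rich genes, those in the upper quartile of transcript length and the lower quartile of GC content. The median deviation of these 1406 genes from their mean over all libraries was 0.09 (log2) in sip53 0 h replicate 1 against -0.12 and -0.14 in replicates 2 and 3, and -0.01 in sip53 8 h replicate 2 against -0.10 and -0.12 in replicates 1 and 3. It was 0.04 to 0.15 in all siControl libraries, so long AT-rich genes as a class were lower in sip53. Results are therefore also given without those 2 sip53 libraries, and after a fit that removes how each library varies with length and GC content (the trend removed). Both were chosen after seeing the data. Most members were highest of their group in those 2 libraries, so leaving them out by itself lowers the sip53 level of most members. The siControl libraries that were lowest were not left out together. In RNA from whole cultures, fewer cells in mitosis and less RNA of these genes per cell cannot be told apart.

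**Figure D1:**
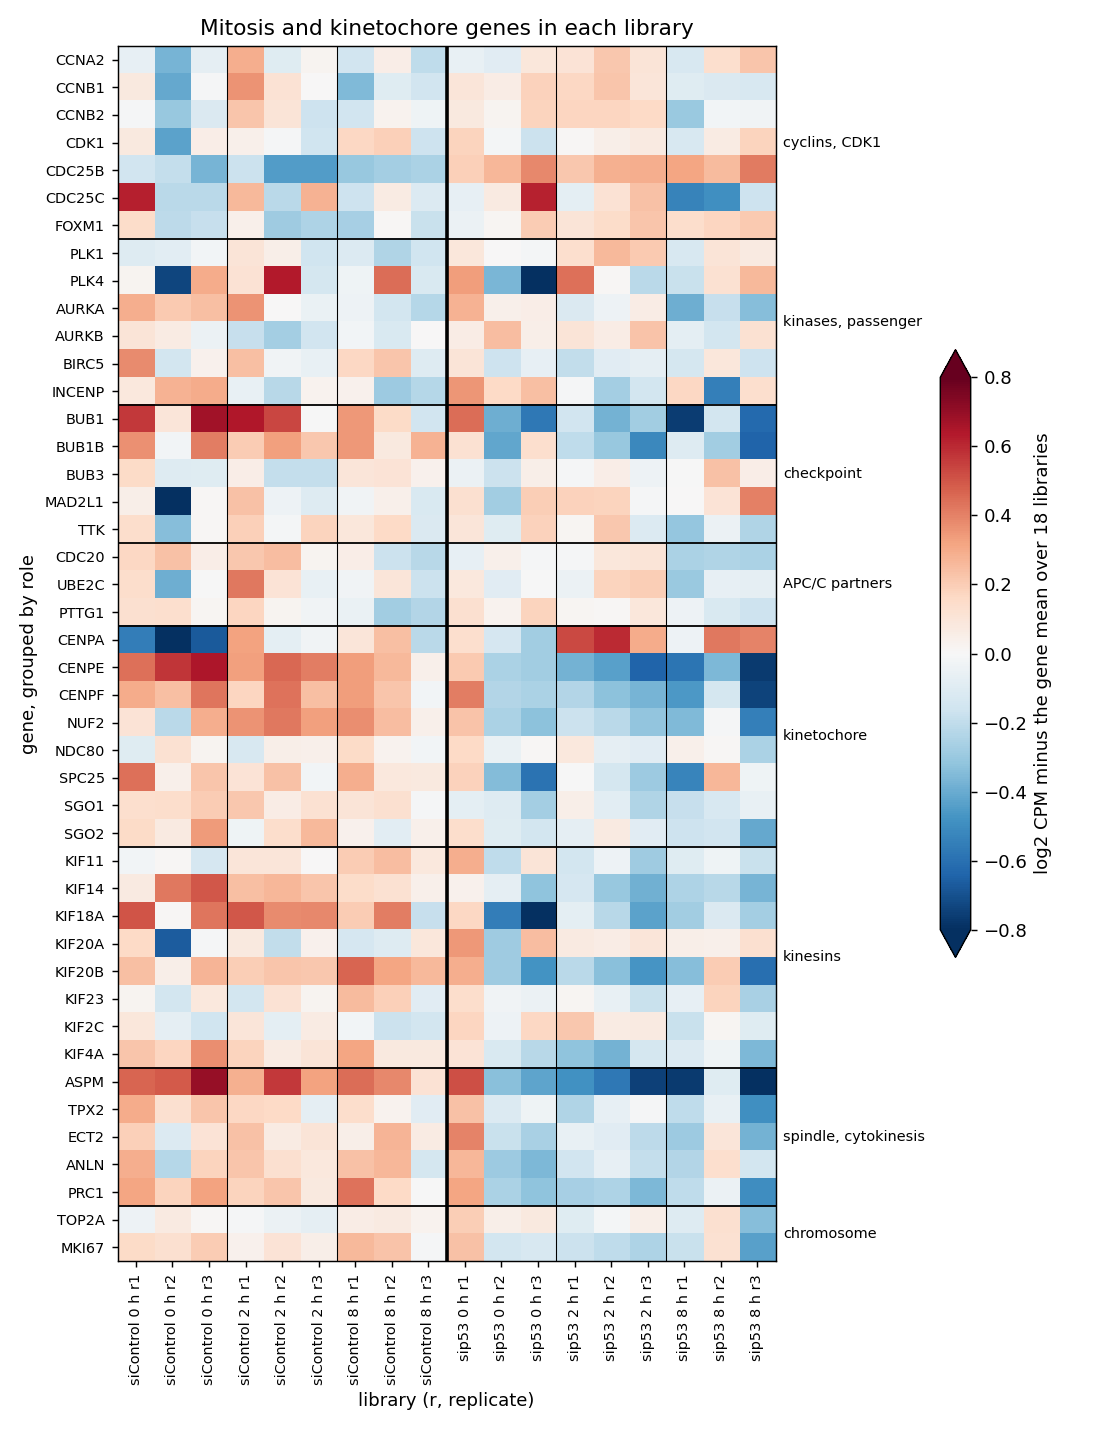
Each row is 1 of the 44 genes, grouped by role, each column 1 of the 18 libraries, and colour is the log2 CPM minus the gene's mean over all 18 (scale ends at ±0.8, beyond which colours do not deepen). CENPE, ASPM and KIF14 are mostly blue in the 9 sip53 columns and CDC25B is red there, while CCNB1, CDK1 and TOP2A show no block by arm.

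The first comparison asks what the p53 siRNA does to the mitotic program. Averaged over the 3 times, CENPE, ASPM and many other kinetochore, kinesin and spindle genes were lower in sip53 than in siControl, whereas the CDK1 activator CDC25B, the centromeric histone CENPA, FOXM1 and PLK1 were higher. Of the 44 members 21 were called, 4 higher and 17 lower, which is 47.7% of the members beside 34.6% of all genes tested. By direction, 9.09% of the members were higher beside 16.1% of all genes, and 38.6% were lower beside 18.5%. The median log2 fold change of the 44 was -0.12, with 15 values above 0 and 29 below, and that of all genes was 0.01. At single times 2 members were higher and 3 lower at 0 h (11.4% beside 9.12% of all genes, of which 3.98% higher and 5.14% lower). At 2 h 2 were higher and 10 lower (27.3% beside 12.2%, of which 4.42% higher and 7.79% lower), and at 8 h 1 was higher and 7 lower (18.2% beside 8.96%, of which 2.81% higher and 6.14% lower). CDC25B was called higher at all 3 times, and CENPE and KIF14 lower at all 3. Those of CDC25B and CENPE were kept at each time in every alternative fit, while KIF14 kept its call in 3 of 6 fits with 1 library left out at 0 h, 6 of 6 at 2 h and 1 of 6 at 8 h. The single-time counts depend on single libraries: without sip53 0 h replicate 1 the 0 h count was 11 in place of 5, without sip53 8 h replicate 2 the 8 h count was 11 in place of 8, and without any other library it was 2 to 4 at 0 h, 5 to 9 at 2 h and 2 to 6 at 8 h. With the 2 sip53 libraries left out it was 12 at 0 h, 14 at 8 h and 24 for the average, and 20 of the 21 averaged calls were kept. These 2 were picked because members were high in them, so more lower calls follow from the choice and add no support. Shares of all genes called in these refits are not given here, so whether such shifts are particular to the members cannot be told.

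**Figure D2:**
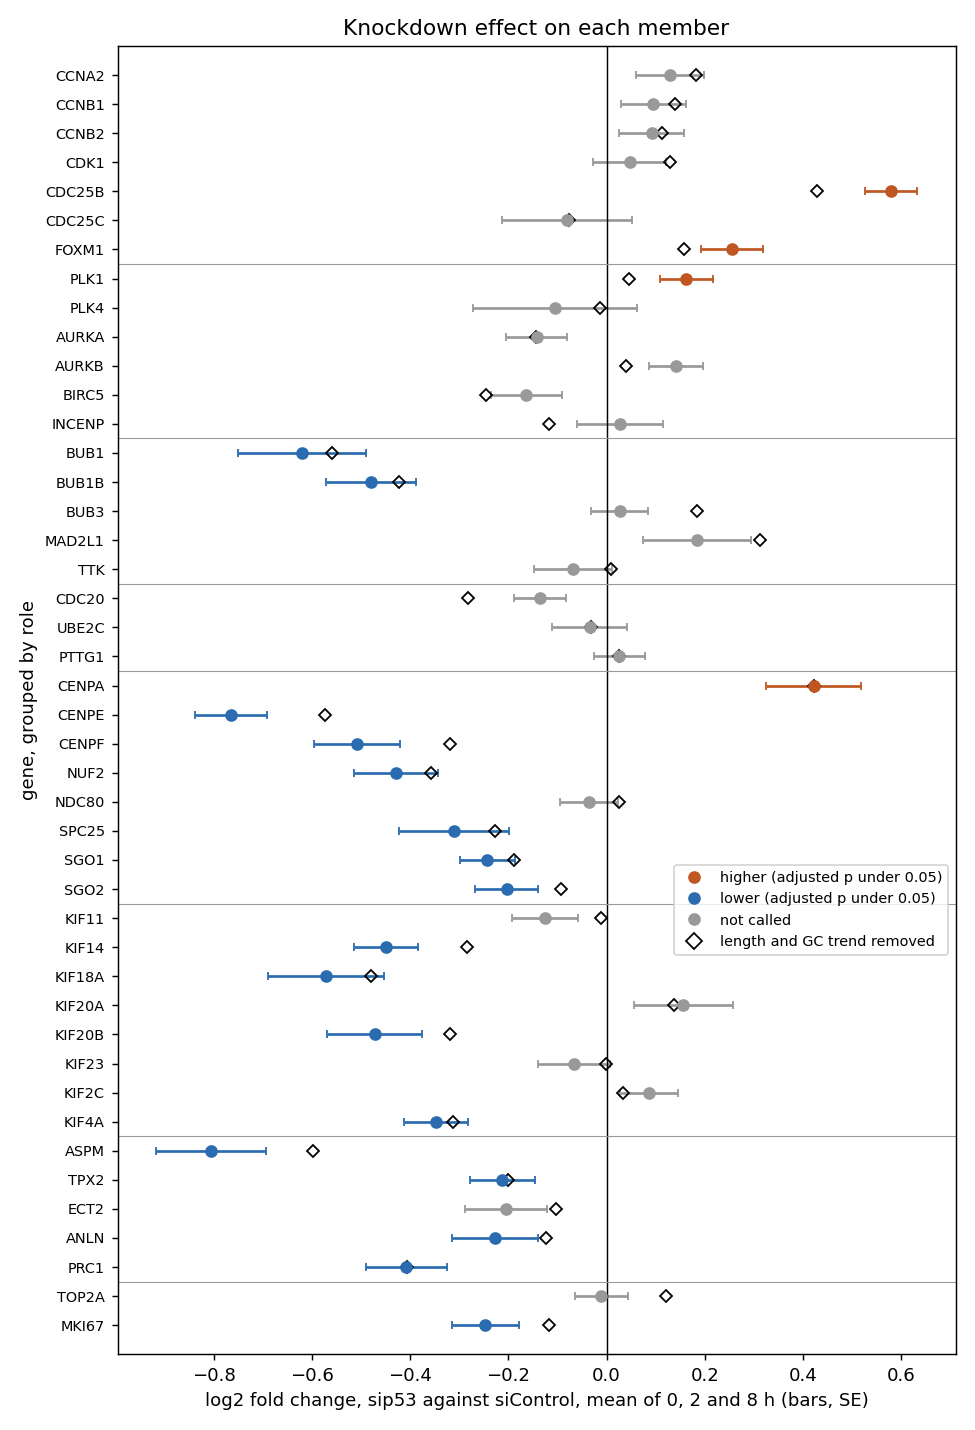
Log2 fold change of sip53 against siControl averaged over 0, 2 and 8 h for each of the 44 genes (filled points, bars SE, coloured by call), with the value after the trend was removed (open diamonds). The calls run from -0.81 in ASPM to 0.58 in CDC25B, and the diamonds of the 17 lower genes lie at or nearer to 0 than their points.

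Among the 7 cyclins, CDK1 and their activators 2 were higher, 0 lower and 5 not called in the averaged comparison (28.6% called, beside 34.6% of all genes). CDC25B, a phosphatase that removes inhibitory phosphates from CDK1, gave 278, 271 and 239 CPM at 0 h, 274, 227 and 227 at 2 h, and 250.4, 257 and 259 at 8 h in siControl. In sip53 it gave 353, 372 and 404 CPM at 0 h, 359, 377 and 378 at 2 h, and 384, 368 and 413 at 8 h. All 9 sip53 libraries lay above all 9 of siControl, and no group stood apart by time. The averaged log2 fold change was 0.58 ± 0.05 (adjusted p = 7.21e-08), and 0.43 with the trend removed. FOXM1, the transcription factor that drives many G2 and M genes, had 250.3, 196 and 199 CPM at 0 h, 233, 186 and 191 at 2 h, and 189, 228 and 200.3 at 8 h in siControl. Its sip53 values were 219.6, 229 and 260.2 CPM at 0 h, 243, 251 and 265 at 2 h, and 249.8, 255 and 262 at 8 h. The arms overlapped at 0 h through siControl replicate 1 and did not overlap at 2 and 8 h. FOXM1 rose by 0.25 ± 0.06 on the log2 scale (adjusted p = 0.00328) and kept its call with the trend removed (0.16, adjusted p = 0.0478). An exon of ITFG2 lies over FOXM1 on the other strand, and the sources used here do not say whether the counting used strand. ITFG2 had a log2 value of -0.22 ± 0.10, opposite in sign to FOXM1 and not called. Among members not called, CCNA2, CDC25C and KIF20A overlap expressed genes on the other strand in the same way, and their values are uncertain for it.

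CCNB1, the B-type cyclin that CDK1 needs to start mitosis, gave 133, 94.4 and 125 CPM at 0 h, 161, 136 and 126 at 2 h, and 98.3, 117 and 113 at 8 h in siControl. In sip53 its levels were 134, 131 and 143 CPM at 0 h, 141, 146 and 134 at 2 h, and 117, 116 and 115 at 8 h. The arms overlapped at every time, with the single lowest value in siControl 0 h replicate 2. Its averaged log2 fold change was 0.10 ± 0.07 (adjusted p = 0.284), so no change was called. CDK1, the kinase itself, gave 127, 89.3 and 125 CPM at 0 h, 124, 119.6 and 108 at 2 h, and 135, 137 and 107 at 8 h in siControl. In sip53 CDK1 gave 136, 119 and 107 CPM at 0 h, 121, 124 and 126 at 2 h, and 110.2, 126 and 136 at 8 h. These overlapped at each time too, and the averaged value was 0.05 ± 0.07 (adjusted p = 0.669). The other members of the group were not called: CCNA2 at 0.13 ± 0.07, CCNB2 at 0.09 ± 0.07 and CDC25C at -0.08 ± 0.13. With the trend removed CCNA2 was called higher (0.18, adjusted p = 0.0268).

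Of the 6 mitotic kinases and chromosomal passenger subunits 1 was higher and 0 lower (16.7% called, beside 34.6% of all genes). PLK1, the polo kinase of mitotic entry and spindle assembly, stood at 117, 119 and 124 CPM at 0 h, 136, 131 and 113 at 2 h, and 117, 107 and 113 at 8 h in siControl. With sip53 it stood at 135, 127 and 125 CPM at 0 h, 138, 151 and 146 at 2 h, and 115, 136 and 133 at 8 h. The sip53 libraries were all above those of siControl at 0 h and at 2 h, and 8 h overlapped. PLK1 rose by 0.16 ± 0.05 (adjusted p = 0.0229), a call lost with the trend removed (0.05, adjusted p = 0.594) and without the 2 sip53 libraries (0.14, adjusted p = 0.0625). AURKB, the kinase of the passenger complex that corrects wrong attachments, gave 113, 110.0 and 102 CPM at 0 h, 92.5, 86.9 and 94.5 at 2 h, and 104, 96.7 and 105 at 8 h in siControl. Its sip53 levels were 109, 125 and 108 CPM at 0 h, 113, 109 and 123 at 2 h, and 99.4, 94.8 and 115 at 8 h. Only at 2 h did the 3 sip53 libraries all exceed those of siControl, where AURKB was called higher at 0.33 ± 0.10 (adjusted p = 0.0262), a call lost with the trend removed (adjusted p = 0.172) and without siControl 2 h replicate 2 or sip53 2 h replicate 1 or 3. Averaged over times it was 0.14 ± 0.06 (adjusted p = 0.0537). The passenger subunits BIRC5 (survivin) at -0.16 ± 0.07 and INCENP at 0.03 ± 0.09, the centriole kinase PLK4 at -0.11 ± 0.17 and the spindle pole kinase AURKA at -0.14 ± 0.06 were not called.

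In the spindle checkpoint 2 of 5 members were lower and 0 higher (40% called, beside 34.6% of all genes, of which 18.5% lower). BUB1B (BubR1), part of the complex that inhibits the anaphase-promoting complex, had 43.95, 33.5 and 45.2 CPM at 0 h, 39.3, 42.7 and 39.5 at 2 h, and 43.3, 35.98 and 41.3 at 8 h in siControl. It had 37.1, 25.5 and 37.3 CPM at 0 h, 29.6, 27.6 and 23.8 at 2 h, and 31.7, 28.1 and 21.8 at 8 h in sip53. At 2 and 8 h all sip53 libraries were below all siControl libraries, and at 0 h they overlapped. BUB1B fell by 0.48 ± 0.09 on average (adjusted p = 0.000321). BUB1, a kinase that recruits checkpoint and cohesion-protecting proteins to kinetochores, ran at 26.3 to 46.5 CPM (median 37.2) in siControl and 17.3 to 39.9 CPM (median 22.5) in sip53, with its highest sip53 value in 0 h replicate 1. BUB1 fell by 0.62 ± 0.13 (adjusted p = 0.000798) and was at -0.81 without the 2 sip53 libraries. BUB3 at 0.03 ± 0.06, MAD2L1 at 0.18 ± 0.11 and TTK at -0.07 ± 0.08 were not called. BUB3 and MAD2L1 were called higher with the trend removed, at 0.18 and 0.31. None of the 3 partners of the anaphase-promoting complex was called by edgeR in the averaged comparison (34.6% of all genes were). CDC20, the activator of that complex, was at -0.14 ± 0.05 (adjusted p = 0.0544). By DESeq2 CDC20 was called, at -0.13 (adjusted p = 0.0377), as it was with the trend removed (-0.28). At an unadjusted p under 0.05 edgeR counted 1 of the 3. UBE2C, its ubiquitin-conjugating enzyme, was at -0.03 ± 0.08, and PTTG1 at 0.03 ± 0.05.

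The centromere and kinetochore group held the most calls, with 1 of 8 members higher and 6 lower (12.5% and 75%, beside 16.1% and 18.5% of all genes). CENPE, a kinesin that carries chromosomes to the spindle equator from the kinetochore, stood at 230.2, 253 and 266 CPM at 0 h, 213, 233 and 225 at 2 h, and 214, 204 and 174 at 8 h in siControl. With sip53 it was at 197, 143 and 139.9 CPM at 0 h, 131, 126 and 109 at 2 h, and 113, 132 and 99.9 at 8 h. At every time all 3 sip53 libraries were below all 3 of siControl, and the highest sip53 value was again 0 h replicate 1. CENPE fell by 0.64 ± 0.13, 0.88 ± 0.13 and 0.78 ± 0.13 at 0, 2 and 8 h and by 0.77 ± 0.07 on average (adjusted p = 1.09e-07). It was -0.57 with the trend removed, and the sip53 groups kept to the same side at each time. CENPF, a large kinetochore and nuclear matrix protein of G2 and M, had 473, 455 and 519 CPM at 0 h, 434, 519.9 and 455 at 2 h, and 486, 449 and 378 at 8 h in siControl. In sip53 it had 510.4, 326 and 323 CPM at 0 h, 327, 307 and 297 at 2 h, and 279, 349 and 231 at 8 h. At 0 h only replicate 1 of sip53 reached the siControl range, and at 2 and 8 h none did. CENPF fell by 0.51 ± 0.09 (adjusted p = 0.000111; -0.32 with the trend removed).

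NUF2, a subunit of the NDC80 complex that grips microtubules, gave 114, 91.5 and 130.0 CPM at 0 h, 136, 142 and 133 at 2 h, and 137, 126 and 109 at 8 h in siControl. Its values were 124, 89.2 and 84.7 CPM at 0 h, 94.3, 91.5 and 85.2 at 2 h, and 83.2, 105 and 72.6 at 8 h in sip53. The arms overlapped at 0 h and not at 2 or 8 h, and NUF2 fell by 0.43 ± 0.09 (adjusted p = 0.000462). Its partners in the same complex were NDC80, at -0.04 ± 0.06 and not called, and SPC25, which fell by 0.31 ± 0.11 (adjusted p = 0.0341), a call kept in 9 of 18 fits with 1 library removed and lost with the trend removed (adjusted p = 0.0917). The shugoshins, which protect centromeric cohesion, also fell, SGO1 by 0.24 ± 0.06 and SGO2 by 0.20 ± 0.06. SGO2 was not called with the trend removed (-0.09, adjusted p = 0.256).

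CENPA, the histone H3 variant that marks the centromere, moved the other way. It gave 18.02, 12.96 and 16.6 CPM at 0 h, 33.04, 25.1 and 25.9 at 2 h, and 28.3, 31.3 and 22.7 at 8 h in siControl. In sip53 it gave 29.04, 24.1 and 21.8 CPM at 0 h, 38.1, 39.9 and 32.5 at 2 h, and 25.7, 35.4 and 34.9 at 8 h. The 3 siControl libraries at 0 h were the lowest of all 18, and the arms did not overlap at that time but did at 2 and 8 h. CENPA rose by 0.65 ± 0.17 at 0 h (adjusted p = 0.0235), by 0.42 ± 0.10 on average (adjusted p = 0.00176), and the averaged value was the same, 0.42, with the trend removed. The 0 h call was kept in 2 of 6 fits that left out 1 library. CENPA shares exon sequence on the same strand with SLC35F6, a transporter gene whose reads reached 2145 per library while the lowest CENPA count was 101. SLC35F6 itself gave 118, 110.5 and 104 CPM at 0 h, 155, 154 and 153 at 2 h, and 159, 163 and 167 at 8 h in siControl. With sip53 it gave 128, 146 and 149 CPM at 0 h, 175, 188 and 178 at 2 h, and 187, 206 and 198 at 8 h. SLC35F6 moved in the same direction as CENPA, by 0.28 ± 0.05 on average (adjusted p = 0.000151), and its part in the CENPA counts was not tested. CENPA is therefore uncertain in every comparison here.

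Of the 8 mitotic kinesins 4 were lower and 0 higher (50% lower, beside 18.5% of all genes). KIF14, a kinesin of the midzone and late cytokinesis, had 102, 129.6 and 136 CPM at 0 h, 114, 116 and 113 at 2 h, and 107, 105 and 99.2 at 8 h in siControl. It had 99.01, 92.1 and 77.1 CPM at 0 h, 87.9, 78.4 and 73.9 at 2 h, and 81.2, 82.7 and 74.7 at 8 h in sip53. All 9 sip53 libraries were below all 9 of siControl. KIF14 fell by 0.45 ± 0.07 (adjusted p = 1.77e-05) and was at -0.28 with the trend removed. KIF18A, which damps chromosome movement at the spindle equator, gave 24.2, 17.2 and 22.97 CPM at 0 h, 24.2, 22.2 and 22.3 at 2 h, and 19.7, 22.7 and 15.1 at 8 h in siControl. In sip53 it gave 19.2, 11.7 and 9.54 CPM at 0 h, 16.2, 14.6 and 12.7 at 2 h, and 14.1, 15.8 and 14.2 at 8 h. The arms overlapped at 0 and 8 h and not at 2 h, and the fall was 0.57 ± 0.12 (adjusted p = 0.000692). KIF20B, a kinesin of cytokinesis, fell by 0.47 ± 0.10 and KIF4A, a chromosome-bound kinesin of the midzone, by 0.35 ± 0.07. Genes on the other strand overlap KIF18A (METTL15, -0.06 ± 0.08, not called) and KIF4A (PDZD11, 0.32 ± 0.08, called higher, adjusted p = 0.0027). Of the genes over KIF20A, BRD8 was called lower at -0.29 ± 0.08 (adjusted p = 0.00875) and CDC23 was at 0.00 ± 0.10. The part of these genes in the counts of the kinesins was not tested. KIF11 at -0.13 ± 0.07, KIF20A at 0.16 ± 0.10, KIF23 at -0.07 ± 0.07 and KIF2C at 0.09 ± 0.06 were not called.

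In the group of spindle poles, midzone and cytokinesis 4 of 5 were lower and 0 higher (80% lower, beside 18.5% of all genes). ASPM, which focuses microtubules at spindle poles, stood at 535, 545 and 629 CPM at 0 h, 472, 573 and 484 at 2 h, and 529.6, 505 and 420.3 at 8 h in siControl. With sip53 ASPM stood at 554, 308 and 289 CPM at 0 h, 277, 261 and 231 at 2 h, and 228, 363 and 213 at 8 h. At 0 h sip53 replicate 1 was inside the siControl range and the other replicates were far below it, and at 2 and 8 h no sip53 library reached that range. ASPM fell by 0.81 ± 0.11 on average (adjusted p = 1.13e-05), was at -0.60 with the trend removed and at -1.02 without the 2 sip53 libraries. PRC1, which bundles microtubules in the midzone, fell by 0.41 ± 0.08 (adjusted p = 0.000541) and was at -0.41 with the trend removed. TPX2, which activates AURKA on the spindle, fell by 0.21 ± 0.07, and ANLN, the scaffold anillin of the cleavage furrow, by 0.23 ± 0.09 (adjusted p = 0.0469). ANLN kept its call in 4 of 18 fits that left out 1 library and lost it with the trend removed. ECT2, the exchange factor that starts furrowing, was at -0.21 ± 0.08 (adjusted p = 0.0599).

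TOP2A, the topoisomerase that untangles sister chromatids, gave 1972, 2133 and 2037 CPM at 0 h, 2011, 1958 and 1925 at 2 h, and 2116, 2132 and 2065 at 8 h in siControl. In sip53 it gave 2320.3, 2090.1 and 2139 CPM at 0 h, 1894, 2008 and 2089.6 at 2 h, and 1885, 2215 and 1598 at 8 h. The arms overlapped at every time, and the averaged value was -0.01 ± 0.05 (adjusted p = 0.9), with 0.01 under upper-quartile scaling and 0.12 with the trend removed, so no direction is given. MKI67, the gene of the proliferation marker Ki-67, which coats mitotic chromosomes, gave 533, 525 and 553 CPM at 0 h, 490.5, 517 and 495 at 2 h, and 574, 563 and 477 at 8 h in siControl. In sip53 MKI67 gave 565, 434 and 438 CPM at 0 h, 426, 417 and 404 at 2 h, and 424, 523 and 356 at 8 h. The arms were apart at 2 h, and overlapped at 0 and 8 h through the 2 sip53 libraries named above. MKI67 fell by 0.25 ± 0.07 (adjusted p = 0.00692), and with the trend removed it was at -0.12 and not called (adjusted p = 0.137).

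**Figure D3:**
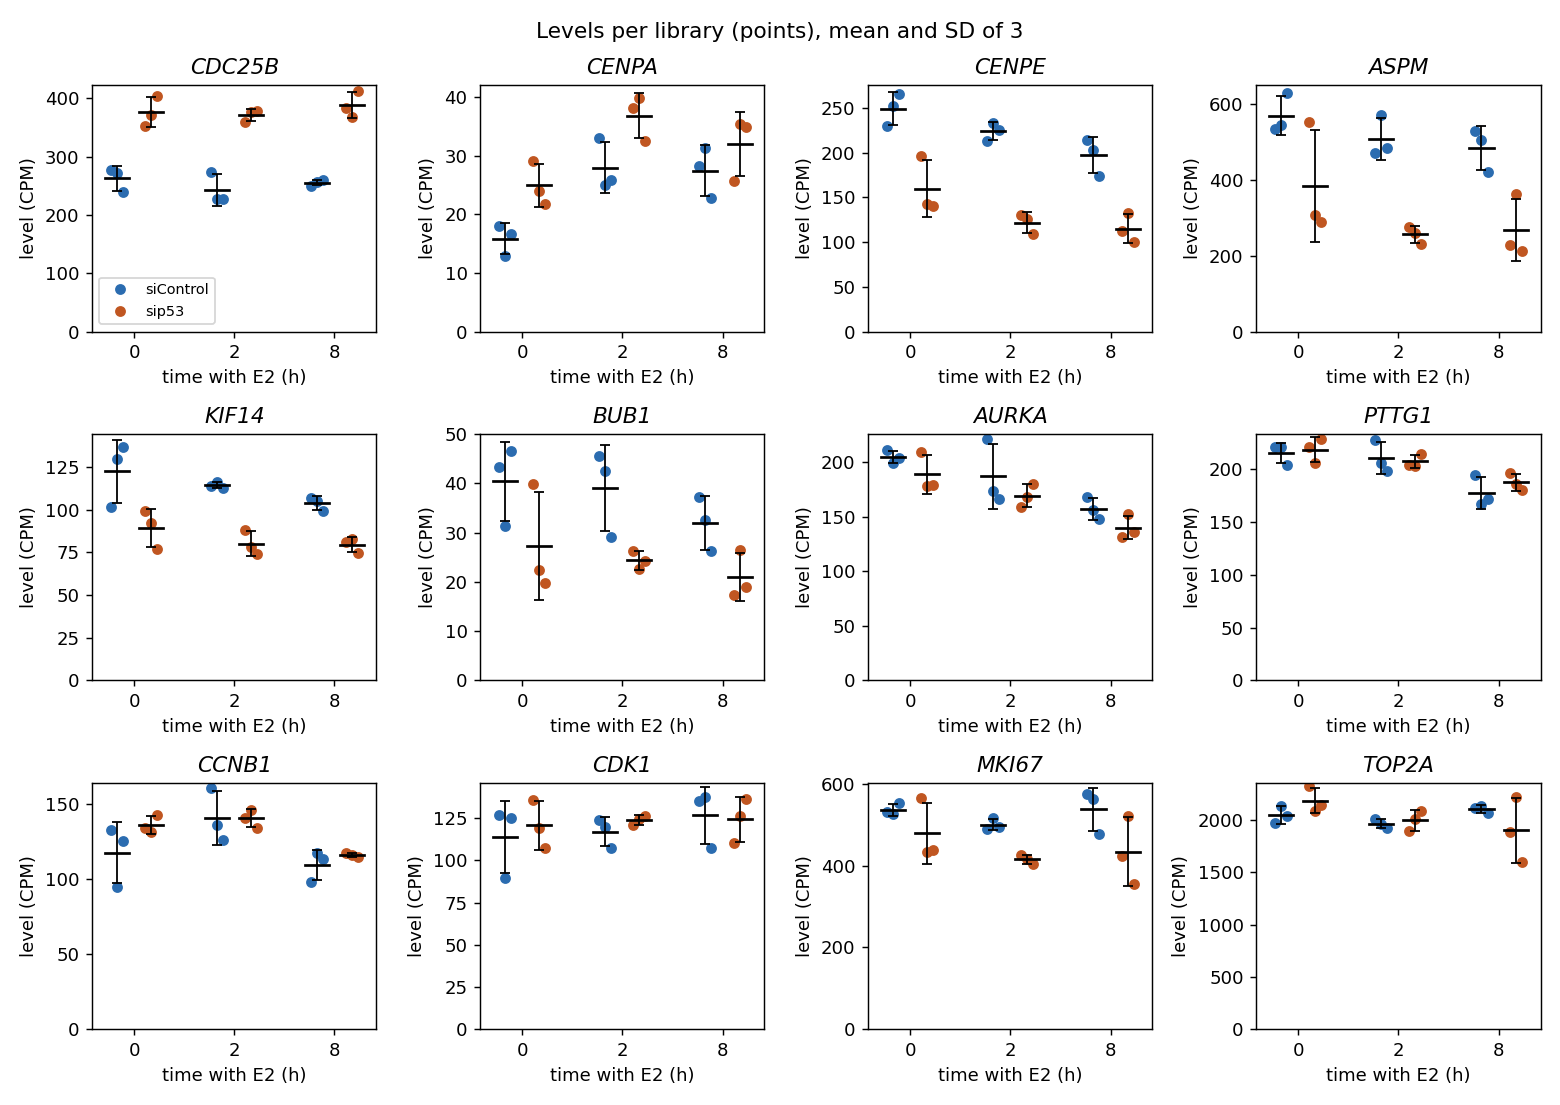
Level in CPM of 12 genes against time with E2, 1 point per library, blue for siControl and orange for sip53, with the mean (line) and SD (bar) of 3. CDC25B lies higher and KIF14 and CENPE lower in sip53 at each time, AURKA and PTTG1 are lowest at 8 h in both arms, and CDK1 and TOP2A overlap throughout.

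The direction of the knockdown values went with base composition. The 4 members called higher had a median GC content of 55.5% in their longest transcript, the 17 called lower 40.0%, and the 23 not called 43.2%. Across the 44 genes, which are not independent replicates and share the same 18 libraries, the averaged log2 fold change had a Spearman correlation of 0.50 and a Pearson correlation of 0.55 with GC content. With the trend removed these were 0.29 and 0.30. In that fit 21 members were called, 6 higher and 15 lower, and 16 of them were among the 21 above. The share of all genes called in that fit is not given here, so this count stands without a background. The calls not kept were PLK1, SPC25, SGO2, ANLN and MKI67, and the added ones were CCNA2, BUB3 and MAD2L1 (higher) and BIRC5 and CDC20 (lower). With the trend removed the rises of CDC25B, FOXM1 and PLK1 were smaller too, and that of CENPA was the same. Short GC-rich genes, defined by the opposite quartiles, had median deviations of -0.13 to 0.02 in siControl and 0.00 to 0.19 in sip53. What part of the falls and rises goes with composition and what part with the knockdown cannot be told apart, since both classes of genes differed between the arms.

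**Figure D4:**
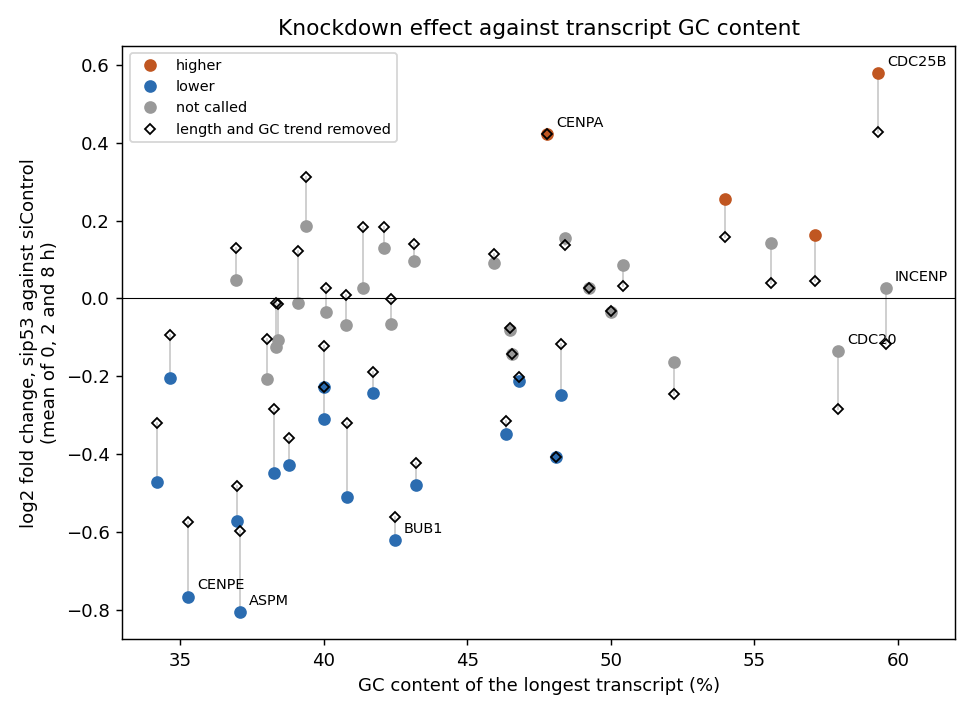
Averaged log2 fold change of sip53 against siControl (y) against GC content of the longest transcript in percent (x) for the 44 genes, coloured by call, each joined by a grey line to its trend-removed value (open diamonds). Genes called lower lie between 34.2% and 48.3% GC and those called higher between 47.8% and 59.3%.

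The other question is how these genes change over time with E2, and whether that differs between the arms. No library was kept for 2 or 8 h without E2. The effect of E2 and that of elapsed time or handling therefore cannot be told apart. At 8 h, averaged over the arms, the spindle pole kinase AURKA, the kinetochore motor CENPE, securin (PTTG1), CDC20 and INCENP were lower than at 0 h, and CENPA was higher at both 2 and 8 h. In that comparison 1 member was higher and 5 lower, 13.6% of the members beside 9.6% of all genes (5.16% higher and 4.44% lower). At 2 h 1 was called, CENPA (2.27% beside 1.34%). Within siControl 1 member was called at 2 h (2.27% beside 0.228%) and 1 at 8 h (2.27% beside 2.6%), in both cases CENPA. Within sip53 edgeR called 0 at 2 h (0.307% of all genes), where 5 had an unadjusted p under 0.05 and DESeq2 called 0, and 2 at 8 h, both lower (4.55% beside 2.74%, of which 1.55% higher and 1.18% lower). From 2 to 8 h edgeR called 0 in siControl (1.02% of all genes; 4 at an unadjusted p under 0.05, 0 by DESeq2). It also called 0 in sip53 (1.38%; 5 unadjusted), where DESeq2 called 1, CDC20. The comparisons at 2 and 8 h share their 0 h libraries, and those within an arm enter the average.

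AURKA gave 211, 199 and 204 CPM at 0 h, 221, 173 and 166 at 2 h, and 168, 156 and 148 at 8 h in siControl. In sip53 AURKA gave 209, 178 and 179 CPM at 0 h, 159, 168 and 179.8 at 2 h, and 132, 152 and 136 at 8 h. In both arms every 8 h library was below every 0 h library, and 2 h overlapped with 0 h. The 8 h log2 fold change was -0.38 ± 0.11 in siControl (adjusted p = 0.0578), -0.43 ± 0.11 in sip53 (adjusted p = 0.0281) and -0.41 ± 0.08 averaged (adjusted p = 0.00118). The averaged call was kept in every alternative fit, whereas the sip53 call was kept in 3 of 6 fits with 1 library left out. It was lost without sip53 0 h replicate 1 and without 8 h replicate 1 or 3 (adjusted p up to 0.135), and with the compared groups alone. PTTG1, the securin that holds separase inactive until anaphase, gave 221, 222 and 205 CPM at 0 h, 228, 206 and 199 at 2 h, and 195, 167 and 172 at 8 h in siControl. In sip53 it had 221, 206 and 229 CPM at 0 h, 204, 203 and 215 at 2 h, and 197, 186 and 180.5 at 8 h. Here too the 8 h libraries of each arm were all below those at 0 h, with -0.25 ± 0.06 averaged (adjusted p = 0.0129).

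CDC20 gave 186, 195 and 172 CPM at 0 h, 192, 197 and 169 at 2 h, and 172, 147 and 142 at 8 h in siControl. In sip53 CDC20 gave 158, 170.4 and 165 CPM at 0 h, 165, 177 and 178 at 2 h, and 139, 140.3 and 139 at 8 h. In sip53 the 8 h libraries were below all at 0 and 2 h, while in siControl 8 h replicate 1 overlapped with 0 h. The averaged 8 h value was -0.25 ± 0.07 (adjusted p = 0.0173), and without siControl 8 h replicate 2 its adjusted p was 0.0531. CENPE, whose library values stand above, was at -0.34 ± 0.13 at 8 h in siControl and not called (adjusted p = 0.157), fell by 0.47 ± 0.13 in sip53 (adjusted p = 0.0439) and by 0.41 ± 0.09 averaged (adjusted p = 0.00498). The sip53 call of CENPE was lost in the same fits as that of AURKA, and its value was -0.30 without sip53 0 h replicate 1 (adjusted p = 0.284). INCENP, the scaffold of the passenger complex, was at -0.34 ± 0.11 (adjusted p = 0.0441), a call kept in 5 of 12 fits with 1 library left out and lost with the compared groups alone. The libraries whose removal ended it were siControl 0 h replicates 2 and 3, siControl 8 h replicates 2 and 3, sip53 0 h replicates 1 and 3 and sip53 8 h replicate 2 (adjusted p up to 0.165).

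CENPA was higher at both later times than at 0 h in the average over arms. Its 2 h and 8 h libraries in siControl all lay above the 3 at 0 h, and in sip53 those at 2 h did while 8 h overlapped. Averaged over arms it rose by 0.69 ± 0.12 on the log2 scale at 2 h (adjusted p = 0.00307) and 0.57 ± 0.12 at 8 h (adjusted p = 0.00355). Within siControl it was 0.81 ± 0.17 at 2 h (adjusted p = 0.0488), a call kept in 1 of 6 fits with 1 library left out, and 0.78 ± 0.17 at 8 h, kept in 4 of 6. SLC35F6, the overlapping gene, rose as well, by 0.41 ± 0.06 at 2 h and 0.52 ± 0.06 at 8 h averaged (adjusted p = 4.35e-06), and a share of its reads in the CENPA row was not tested.

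Of the other genes that mark dividing cells, those named next were not called with E2. At 8 h averaged over arms CCNB1 was at -0.17 ± 0.08 (adjusted p = 0.219), CDK1 at 0.10 ± 0.09 (adjusted p = 0.559) and FOXM1 at 0.02 ± 0.08 (adjusted p = 0.883). PLK1 was at -0.05 ± 0.07 (adjusted p = 0.665), TOP2A at -0.08 ± 0.07 (adjusted p = 0.486) and MKI67 at -0.07 ± 0.08 (adjusted p = 0.655). Of the 8 kinesins and the 5 spindle and cytokinesis genes edgeR called 0 in that comparison, beside 9.6% of all genes. A count of 0 among so few genes does not show that they did not respond. With an unadjusted p under 0.05 edgeR counted 1 of the kinesins and 2 of the others. DESeq2 called 1, TPX2 (-0.24). The members' median at 8 h was -0.05 in siControl and -0.16 in sip53, beside 0.00 and -0.01 over all genes, and the sip53 median was -0.01 without sip53 0 h replicate 1.

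Whether the change from 0 h with E2 differed between the 2 arms was tested as an interaction. No member was called at 2 h or at 8 h, and neither was any of the 15318 genes (0%). By edgeR 1 member had an unadjusted p under 0.05 at each time, and DESeq2 called 0. At 8 h the sip53 response minus that of siControl was -0.43 ± 0.24 for CENPA (adjusted p = 0.999), -0.05 ± 0.15 for AURKA and 0.06 ± 0.13 for PTTG1. A p over the threshold does not show that the arms responded alike.

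**Figure D5:**
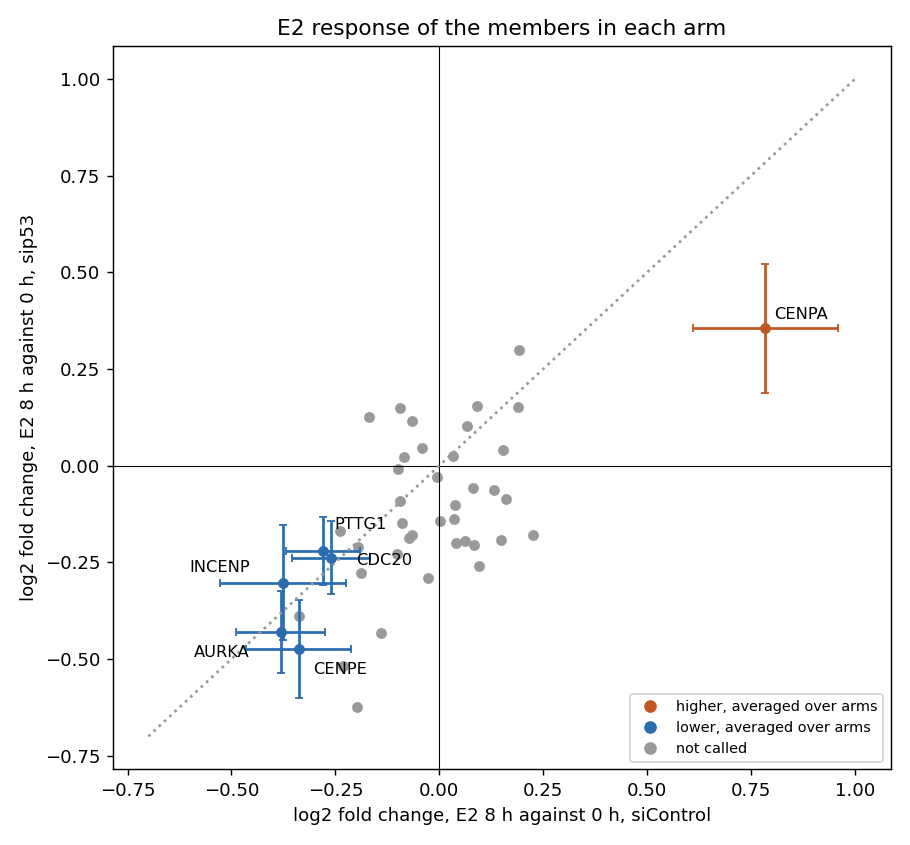
Log2 fold change of E2 8 h against 0 h in sip53 (y) against siControl (x) for the 44 genes, bars SE for the 6 called in the average of both arms, dotted line for equal values. AURKA, CENPE, PTTG1, CDC20 and INCENP lie below 0 in both arms and CENPA above 0 in both, at 0.78 and 0.35.

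The lists of neighbouring genes put these counts beside the rest of the cell cycle. Of 83 other mitotic genes 16 were higher and 24 lower in sip53 averaged over times (19.3% and 28.9%, beside 16.1% and 18.5% of all genes; median -0.03). The lower ones included CENPC, the platform on which the kinetochore is built, at -0.80 ± 0.10, KIF15, a spindle kinesin, at -0.57 ± 0.08, and CKAP5, a microtubule polymerase, at -0.45 ± 0.07. The higher ones included the spindle protein CKAP2L at 0.27 ± 0.05, CENPM, a subunit of the inner kinetochore, at 0.39 ± 0.07, and lamin B1 (LMNB1) at 0.30 ± 0.06. Of the 15 subunits of the anaphase-promoting complex 4 were higher and 2 lower (26.7% and 13.3%, beside the same 16.1% and 18.5%), ANAPC16 at 0.35 ± 0.07, ANAPC15 at 0.31 ± 0.07, CDC26 at 0.39 ± 0.10, ANAPC11 at 0.22 ± 0.06, CDC27 at -0.70 ± 0.09 and CDC16 at -0.20 ± 0.08. Of 31 genes of G1/S and replication licensing 7 were higher and 4 lower (22.6% and 12.9%, beside the same 16.1% and 18.5%, median 0.06). More of this list rose than fell, and the 7 higher genes are not named here. The 4 lower ones were DBF4 at -0.61 ± 0.12, MCM10 at -0.30 ± 0.08, GMNN at -0.36 ± 0.11 and ORC6 at -0.20 ± 0.08. With E2 at 8 h, averaged over arms, 2 other mitotic genes were higher and 2 lower (4.82% in all, beside 9.6% of all genes), CENPL at 0.50 ± 0.12, LMNB1 at 0.26 ± 0.07, MYBL2, a transcription factor of G2 and M genes, at -0.36 ± 0.09 and KIF15 at -0.36 ± 0.09. In the G1/S list 3 were higher and 0 lower (9.68% higher, beside 5.16% of all genes), PCNA at 0.41 ± 0.09, CCNE2 at 0.54 ± 0.13 and RRM2 at 0.34 ± 0.08. ANAPC11 and the genes of the G1/S list were named after their values were seen. In the same comparison, E2 at 8 h averaged over arms, edgeR called 0 subunits of the anaphase-promoting complex, beside 9.6% of all genes. At an unadjusted p under 0.05 the count was 0 too.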

How the data were processed

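RNA of 18 libraries was read with a 3′ mRNA-Seq kit, per the labels' protocols. The authors deposited 1 table of expected counts for genes in all libraries, and build hg19 with cutadapt, Bowtie2, RSEM 1.3.3 and MultiQC are listed in the submitters' processing notes. The annotation and strand setting are not given in the sources used here. All expected counts were whole numbers, so rounding moved 0 values. Rows were named through GENCODE v29 transcripts (rows without a name held 0.635% of counts), and where a gene of the neighbouring lists had several rows the one with the most counts was used. Members and lists were chosen with earlier results of these data known.

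Low counts were removed with filterByExpr (minimum 10), libraries scaled by TMM, and edgeR 4.0.16 (R 4.3.3) fitted 1 quasi-likelihood model to all genes and 18 libraries, with 14 contrasts, after tests on simulated data. Alternatives used DESeq2 1.42.0, other scalings, no filter, a replicate block, the compared groups alone, each library left out, and, added after seeing the data, mgcv 1.9.3 fits that remove how each library varies with transcript length and GC content, and 2 libraries left out. Pairs of libraries in a group differed by 4.04 to 22.9 in chi-square per degree of freedom, more than sampling noise gives. The genes given in every library are CCNB1, CDK1, PLK1, FOXM1, MKI67, TOP2A and, in each contrast and direction, the called members of lowest adjusted p, at most 4. From the neighbouring mitotic and anaphase-promoting complex lists the rule was to name at most 3 a direction. ANAPC11 was named beyond that rule, after its value was seen. Levels of the siRNA's target gene are not reported here.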

Additional observations from a re-analysis of the deposited data

How the results depend on the processing

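The counts of members called depended on the settings as follows, and where no cause is given the cause was not tested. Shares of all genes called under the alternative settings are not given here, so those counts stand without a background. For the knockdown averaged over times the count was 21 to 24 under other scalings, DESeq2, no filter, the trend removed or the 2 sip53 libraries left out, and 19 to 25 with 1 library left out. Of its 21 calls 19 were kept in each fit with 1 library left out and 16 in all alternatives. With 1 library left out (fewer samples) the count was 2 to 11 at 0 h (5 with all), 5 to 9 at 2 h (12 with all) and 2 to 11 at 8 h (8 with all). It was 0 to 1 for E2 at 2 h and 0 to 1 at 8 h in siControl, 0 to 4 at 8 h in sip53, and 1 to 2 at 2 h and 4 to 8 at 8 h averaged over arms. For E2 at 8 h in siControl it was 2 with RLE or upper-quartile scaling, 2 with no filter, 3 with DESeq2 and 3 with the trend removed. With no low-count filter it was 1 for E2 at 2 h and 4 at 8 h in sip53, and 4 at 2 h and 10 at 8 h averaged. DESeq2 called 2 at 2 h averaged and 1 for 8 h against 2 h in sip53. With the compared groups alone (fewer samples) it was 2 for the knockdown at 0 h, 0 for E2 at 2 h and at 8 h in siControl, 0 at 8 h in sip53 and 1 for 8 h against 2 h in sip53. Without the 2 sip53 libraries the counts were 12 (knockdown 0 h), 14 (8 h) and 0 (E2 8 h in sip53). No called value of a member reversed in these fits. Samples with the same replicate number did not deviate together more than others (r -0.15 to 0.21 over 45 pairs, beside -0.17 to 0.21 over 90 others). This cannot show whether the libraries were paired by number. As a block the numbers left 0 calls for E2 at 2 h in siControl and moved no other count by over 1.5 times.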
